A study of Mus musculus with 17 samples.

Results

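A set of 10 genes that mark the blood vessel lining of the kidney was followed through the open-chromatin summit lists of 17 mice: Kdr, Flt1, Ehd3, Emcn, Pecam1, Cdh5, Tek, Plvap, Erg and Nos3. These are 10 of the 21938 protein-coding genes of the annotation, and they were chosen by name. Chromatin was profiled by ATAC-seq, in which a transposase cuts and tags accessible DNA, and each list holds the single-base peak tops (summits) called in 1 library of 20000 kidney cells. Ctrl mice (n = 5) were male C57BL/6 animals of WT genotype given saline. Case mice (n = 6, labelled Db 1 to Db 6) were male db/db animals of the line BKS.Cg-Dock7m +/+ Leprdb/J, which lack working leptin receptor, also given saline. Dapa mice (n = 6, Db 7 to Db 12) were db/db animals that received dapagliflozin, an inhibitor of the sodium-glucose cotransporter SGLT2, at 1 mg/kg per day by gavage. All mice were 8 weeks old at the start and were treated for 6 weeks. Genotype, diabetes and strain background cannot be told apart between Ctrl and the other groups. In a bulk kidney library, fewer endothelial cells and less open chromatin per endothelial cell cannot be told apart either.

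Endothelial cells line the glomerular capillaries, the peritubular capillaries and the larger vessels of the kidney. Their growth and survival depend on VEGF-A, made by podocytes and tubule cells and read by the receptors encoded by Kdr and Flt1, and on angiopoietins, read by the receptor encoded by Tek. The ETS factor encoded by Erg holds the endothelial identity, the adhesion proteins encoded by Cdh5 and Pecam1 join neighbouring cells, and the nitric oxide synthase encoded by Nos3 relaxes the vessel wall. Plvap forms the diaphragms of fenestrae and caveolae, Emcn encodes a surface sialomucin, and Ehd3 encodes an endocytic recycling protein that is enriched in the glomerular capillary.

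The complete lists held 29702 to 56659 summits. Only the top 29702 summits by score were kept in each, as many as Case 4 had in all, so that a longer list did not give a gene more chances. A gene was then given the percentile of its best summit within the list, from 10 kb upstream to the gene end. The best summit of a list has percentile 100, and a gene without a summit has 0. Summits of equal score shared 1 rank. Of 10 markers of the proximal tubule, the most common cell type of the kidney, 76.5% ± 11.7 had a summit within 1 kb of an annotated start (SD, n = 17 mice), as had 49.1% ± 2.10 of all protein-coding genes. The same share was 11.2% ± 6.00 for the endothelial genes, or 0 to 2 of 10 genes per mouse. It was 25.3% ± 5.88 for 36 other endothelial genes and 25% ± 11.7 for 8 podocyte markers. It was 17.6% ± 6.34 for 8 mesangial and pericyte markers, 8.82% ± 11.7 for 10 leukocyte markers and 3.53% ± 10.6 for 5 lymphatic endothelial markers. Case 3 stood apart, with promoter summits at 40% of the leukocyte and 40% of the lymphatic markers and at 50% of the proximal tubule markers. No summit lay within 1 kb of a start of Emcn, Pecam1, Tek, Erg or Nos3 in any complete list, so the promoters of these kidney endothelial markers were not among the called sites in any library.

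**Figure D1:**
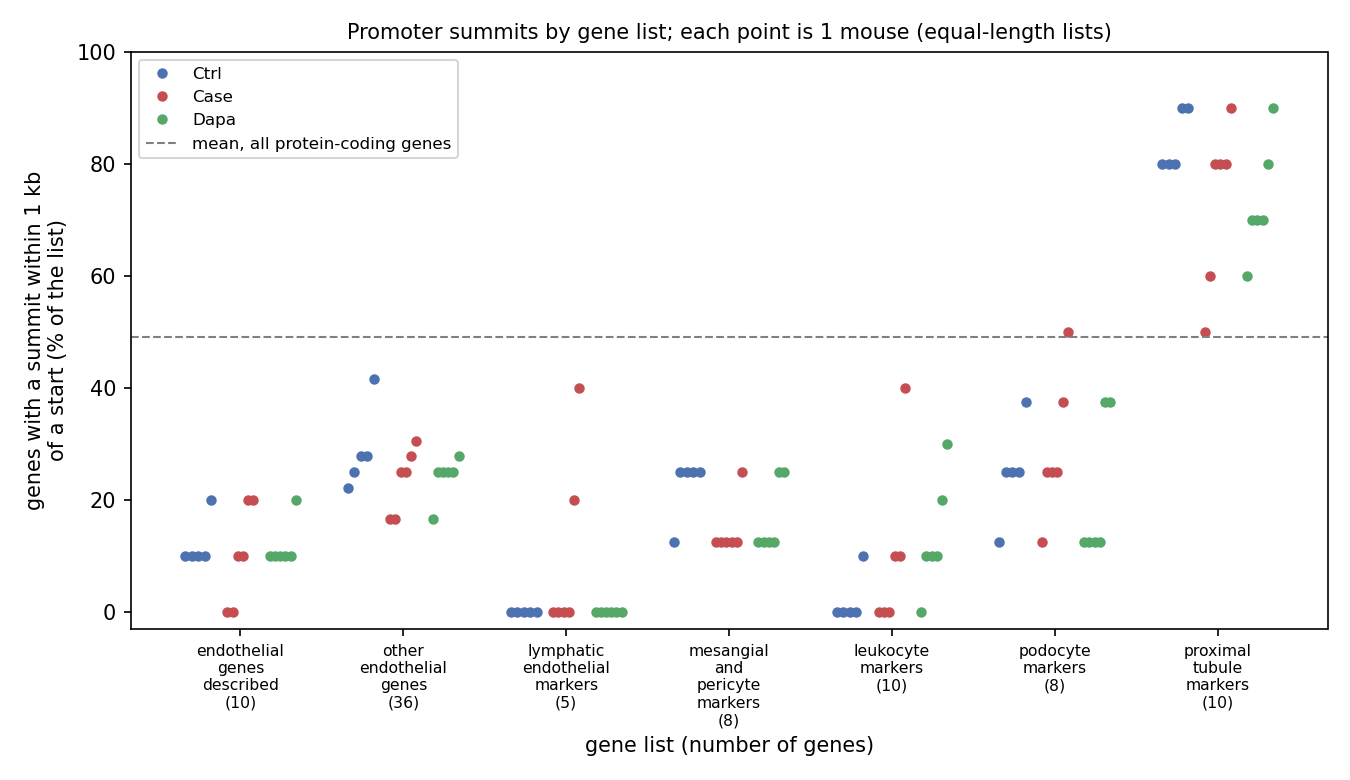
Percent of the genes of each list with a summit within 1 kb of an annotated start (y axis) in each mouse (points, coloured by group), with the mean over all protein-coding genes as a dashed line. The endothelial genes described here lie between 0 and 20%, below the dashed line at 49.1% in all 17 mice, and the proximal tubule markers lie between 50 and 90%.

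With the full window, all 10 genes had a summit in at least 1 library, but only 3 had one in 15 or more. Of all 21938 protein-coding genes, 11145 had one in 15 or more libraries and 14.7% had one in none. The mean share of genes with a summit was 47.1% ± 14.9 for the 10 genes (SD, n = 17 mice). It was 61.8% ± 1.12 for all protein-coding genes and 48.4% ± 5.29 for the 36 other endothelial genes. Flt1 had one in 17 of 17 libraries, Ehd3 in 15 and Nos3 in 15. Cdh5 followed with 11 and Erg with 9, then Kdr with 4, Pecam1 with 3, Plvap with 3, Tek with 2 and Emcn with 1. The windows of the 10 genes held 109 summits in the equal-length lists and 197 in the complete lists. Of the 197, 113 were intronic, 46 exonic and 38 upstream, and 25 lay within 1 kb of a start, of which 15 belonged to Ehd3. The median summit density of the 10 windows was 0.633 per library and 100 kb, beside 2.01 over all protein-coding genes. Other marker lists lay on both sides of it, with medians of 0.282 for lymphatic endothelial, 0.850 for mesangial and pericyte, 1.14 for other endothelial, 1.44 for podocyte, 2.16 for leukocyte and 8.86 for proximal tubule genes. Nos3 was the densest of the 10 with 5.35, above 77.4% of protein-coding genes, and Emcn the sparsest with 0.0582.

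**Figure D2:**
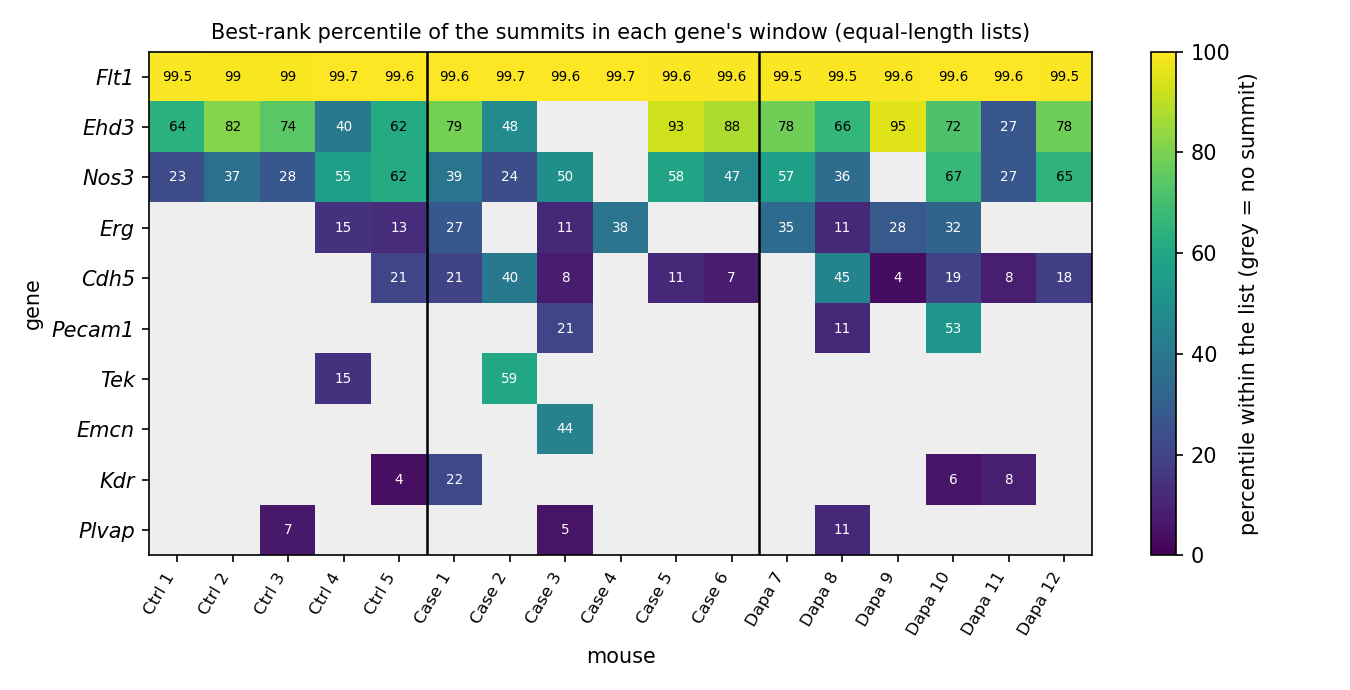
Best-rank percentile of the 10 genes (rows, ordered by their mean) in the 17 mice (columns, black lines between Ctrl, Case and Dapa), in equal-length lists. Flt1 is close to 100 in every mouse (99.3 on average in Ctrl), Ehd3 and Nos3 are filled in 15 of 17 columns, and Emcn, Tek, Kdr, Plvap and Pecam1 are mostly grey, which stands for no summit.

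The sequences under the sites of Ehd3, Nos3 and Cdh5 are given first, because these shared sites lie mostly outside repeats. Each is a stretch of 201 bases centred on the middle summit of the site, read on the strand of the gene from the mm10 assembly (RefSeq GRCm38.p6). Capitals mark CG dinucleotides in Ehd3 and the letters AGGNGGC of the CTCF core in Cdh5. In the upstream site of Nos3 they mark the letters CNGGAAG of ETS factors. In the exonic site of Nos3 they mark the cyclic AMP response element TGACGTCA. That site is labelled last-exon, but a further exon of Nos3 follows it.
Ehd3 start site: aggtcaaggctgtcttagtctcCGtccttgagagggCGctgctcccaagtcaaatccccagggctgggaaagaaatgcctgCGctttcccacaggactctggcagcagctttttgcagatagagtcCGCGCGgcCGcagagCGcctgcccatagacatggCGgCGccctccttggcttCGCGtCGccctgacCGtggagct
Nos3 upstream site: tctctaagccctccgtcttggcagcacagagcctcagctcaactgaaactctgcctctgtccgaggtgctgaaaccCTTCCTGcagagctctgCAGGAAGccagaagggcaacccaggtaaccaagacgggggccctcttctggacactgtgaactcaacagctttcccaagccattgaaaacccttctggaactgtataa
Nos3 last-exon site: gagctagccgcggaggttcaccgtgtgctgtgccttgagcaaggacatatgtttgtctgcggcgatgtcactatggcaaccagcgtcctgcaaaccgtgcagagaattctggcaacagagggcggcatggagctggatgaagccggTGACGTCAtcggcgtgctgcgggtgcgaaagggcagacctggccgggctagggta
Cdh5 upstream site: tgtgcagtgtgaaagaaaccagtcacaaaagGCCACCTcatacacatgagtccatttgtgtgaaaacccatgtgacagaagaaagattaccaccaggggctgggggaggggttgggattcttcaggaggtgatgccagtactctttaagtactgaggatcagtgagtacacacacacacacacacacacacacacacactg
The stretches of Ehd3 and Nos3 had 0% of bases masked as repeat in the reference, and that of Cdh5 had 35.3%. Both strands were searched, and 9 sets of letters were tried, chosen after the sequences had been seen. In the same 201-base windows of 52412 regions found in at least 2 libraries, CNGGAAG was present in 20.9%, TGACGTCA in 0.956% and AGGNGGC in 23.2%. None of these 4 stretches held the AP-1 letters TGANTCA, the GATA letters AGATAAG, the SP/KLF letters GGGCGGG, the SOX letters ACAATGG, the forkhead letters TGTTTAC or the HNF4 letters CAAAGTCCA.

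Flt1, the decoy receptor for VEGF-A, carried the highest-ranked summit of the 10 genes in every mouse, and this summit lay in an intron and not at a promoter. Of the 201 bases around it, 99.5% were masked as repeat in the reference, beside a median of 1.49% over the 52412 regions. More than 90% of bases were masked in 9.30% of these regions, and in 1.73% of those found in all 17 libraries. The rank of the Flt1 summit among 29702 summits ran from 104 to 308.5 in Ctrl, from 101 to 124 in Case and from 112 to 153 in Dapa. The Case and Ctrl ranges overlapped, and the 2 lowest percentiles were those of Ctrl 2 and Ctrl 3. Among all 52412 regions, 110 had a higher mean percentile. With that site set aside, Flt1 had another summit in 1 of 5 Ctrl libraries, in 4 of 6 from Case and in 2 of 6 from Dapa. Their percentiles were 4.24 in Ctrl 5, between 2.81 and 31.7 in the 4 Case mice, and 2.52 and 48.2 in Dapa. Within 1 kb of an annotated Flt1 start, a summit was present in Case 2 alone. The Flt1 percentile in these lists thus describes a site on a repeat, and whether its reads came from this locus was not tested.

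Ehd3 was the only one of the 10 genes with a promoter summit in more than 2 equal-length lists, and had it in 15. The summits gathered at chr17:73804619-73804819, 122 bases before the start of the coding transcript and inside the exon of a longer non-coding one. The stretch held 14 CG dinucleotides, 0.722 of the number its base composition predicts. Percentiles in Ctrl were 64.0, 81.8, 74.3, 40.0 and 61.6 in replicates 1 to 5. In Case they were 79.0, 48.1, 0, 0, 92.9 and 87.5 in replicates 1 to 6. In Dapa they were 78.3, 66.2, 95.1, 71.9, 27.2 and 77.8 in replicates 7 to 12. Case 3 and Case 4 had no summit there in their complete lists either, and these are the 2 shortest lists of the series (29845 and 29702 summits). The other 4 Case mice, from 48.1 to 92.9, spanned most of the Ctrl range, and the 3 groups overlapped. The mean was 64.3 ± 15.8 (SD, n = 5) in Ctrl, 51.3 ± 42.6 (n = 6) in Case and 69.4 ± 22.8 (n = 6) in Dapa. The difference was -13.1 for Case against Ctrl (exact permutation test, two-sided, p = 0.524), 18.2 for Dapa against Case (p = 0.359) and 5.11 for Dapa against Ctrl (p = 0.671). With 1 mouse left out, the Case against Ctrl difference ran from -21.4 (without Case 5) to -2.82 (without Case 3 or Case 4), and that of Dapa against Case from 7.92 (without Case 3 or Case 4) to 26.6 (without Dapa 11). The Case against Ctrl difference was -21.7 in the complete lists and turned to 3.82 with the top 14851 summits of each list (exact permutation p = 0.372 and 0.896).

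Nos3, the endothelial nitric oxide synthase, had 27 summits in the equal-length lists and none within 1 kb of its start. They gathered mainly at 2 sites of 11 libraries each and 1 of 4 libraries. The upstream site, chr5:24357557-24357757, lies 7.15 kb before the gene and 6.05 kb from the nearest start of another gene, Kcnh2. All 5 Ctrl mice had it, as did 2 of 6 Case mice (Case 5 and Case 6) and 4 of 6 Dapa mice (all but Dapa 9 and Dapa 11). The same mice carried it in the complete lists, whereas with the top 14851 summits of each list it was left in 2 Ctrl mice and 1 Case mouse (-23.3 percentage points in place of -66.7, Fisher's exact test, p = 0.545). In the equal-length lists this was the largest difference in presence among the sites of the 10 genes (Fisher's exact test, two-sided, Case against Ctrl, p = 0.0606, adjusted p = 0.338). With 1 mouse left out, the unadjusted p of this exact test was 0.167 without any of Case 1 to Case 4, 0.0762 without any 1 Ctrl mouse, and 0.0476 without Case 5 or Case 6, the 2 Case mice that carry the site. The exact p was 0.567 for Dapa against Case and 0.455 for Dapa against Ctrl. The CNGGAAG letters occur there once on each strand.

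The printed stretch of the Nos3 site labelled last-exon, chr5:24383557-24383757, overlaps coding sequence, and its centre lies 43 bases from a start of the antisense gene Gm15587. The exon is not the last of Nos3, since position 24383729 after it is intronic and the gene ends at 24384474. Presence was counted over the joined summits of the site, chr5:24383167-24383979, which reach past the printed stretch. The joined site was found in 3 Ctrl mice, 4 Case mice and 4 Dapa mice (Case against Ctrl, Fisher's exact test, p = 1). ATAC-seq has no strand, so the site cannot be given to Nos3 or to Gm15587. The Nos3 window also overlaps the 3′ end of Atg9b, a gene of the other strand. The site of 4 libraries, 3.81 kb upstream, was present in 2 Ctrl mice, Case 6 and Dapa 8. Over the whole window, percentiles in Ctrl were 23.0, 36.7, 27.5, 55.5 and 61.6. In Case they were 39.0, 24.2, 50.0, 0, 58.5 and 47.2, with the 0 in Case 4. In Dapa they were 56.6, 35.7, 0, 66.7, 27.2 and 64.9, with the 0 in Dapa 9. The group means were 40.9 ± 16.997, 36.5 ± 21.3 and 41.8 ± 26.0 (SD, n = 5, 6 and 6), and the exact permutation p of the 3 comparisons lay between 0.701 and 0.892. The Case against Ctrl difference was -4.40 in these lists and -16.1 in the complete lists (exact permutation p = 0.264).

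**Figure D3:**
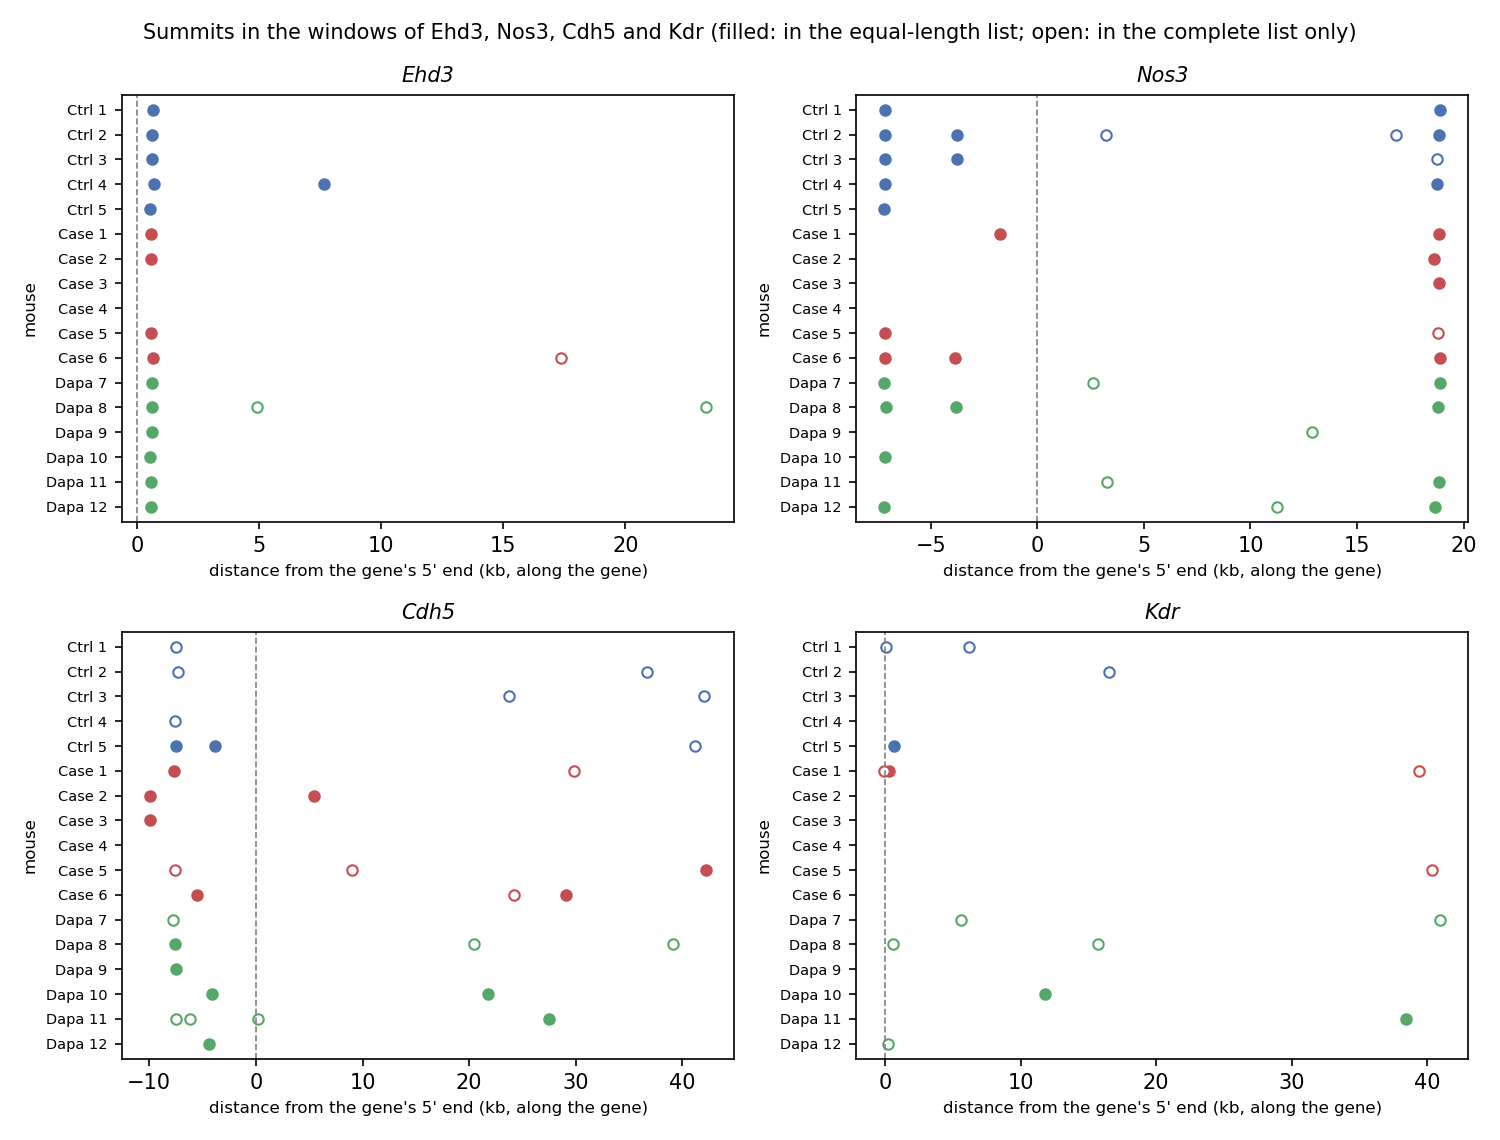
Position of every summit of Ehd3, Nos3, Cdh5 and Kdr along the gene (x axis, kb from the 5′ end, which is the dashed line) in each mouse (y axis), filled where it is in the equal-length list and open where it is in the complete list only. Ehd3 shows 1 column of points missing in Case 3 and Case 4, and Nos3 shows columns at 7.15 kb upstream and 18.8 kb into the gene. Cdh5 shows a column near 7.55 kb upstream in 10 mice, filled in 4 of them, among scattered points, and Kdr is scattered.

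Cdh5, which encodes VE-cadherin, gave different counts in the equal-length and the complete lists. In the equal-length lists 1 Ctrl mouse of 5 had a summit in its window, beside 5 Case mice and 5 Dapa mice of 6 each. In the complete lists these counts were 5, 5 and 6. The only non-zero Ctrl percentile was 21.1, in Ctrl 5. The Case percentiles were 20.5, 40.4, 7.62, 0, 11.0 and 7.49, and those of Dapa were 0, 44.9, 3.51, 19.4, 8.32 and 18.4. The difference of Case from Ctrl was 10.3 (exact permutation test, two-sided, p = 0.242) and turned to -3.06 with the complete lists. Only 1 Ctrl mouse had a summit in the equal-length lists, so Cdh5 met the minimum of 3 mice mainly through Case, and nothing is read from this p. With 1 mouse left out the difference ran from 5.10 (without Case 2, exact permutation p = 0.444) to 14.5 (without Ctrl 5). No p is given for the latter, since every other Ctrl mouse was at 0 and Cdh5 then met the minimum of 3 mice with a summit through Case alone. The stretch printed for Cdh5, chr8:104093973-104094173, lies 7.55 kb upstream. Summits joined around it were present in 4 libraries of the equal-length set (over chr8:104093683-104094374) and in 10 of the complete set (4 Ctrl, 2 Case and 4 Dapa mice, over chr8:104093567-104094522), and some of these lay outside the printed stretch. The Cdh5 window also overlaps the antisense gene Gm29682. The printed Cdh5 stretch runs into a CA repeat near its end. A summit within 1 kb of a Cdh5 start was present in 0 equal-length and 2 complete lists.

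Erg, the ETS factor of endothelium, had 43 summits in the complete lists, all of them intronic, in a window of 237 kb. The most shared of its regions, around 76.8 kb into the gene, was found in 6 complete lists, and the 201 bases at its centre were 100% masked as repeat. Percentiles were above 0 in 2 Ctrl mice (14.7 and 12.6), 3 Case mice (27.4, 11.0 and 38.4) and 4 Dapa mice (35.0, 11.4, 27.9 and 32.3). The means were 5.46 ± 7.51, 12.8 ± 16.5 and 17.8 ± 16.0 (SD, n = 5, 6 and 6), and the groups overlapped at 0. The difference of Dapa from Ctrl was 12.3 (exact permutation test, two-sided, p = 0.199). The difference of Case from Ctrl was 7.35 (exact permutation p = 0.481), and with the complete lists it was -3.28. With 1 mouse left out it ran from 2.23 (without Case 4) to 9.92 (without Case 2, Case 5 or Case 6), and was 4.43 without Case 1.

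**Figure D4:**
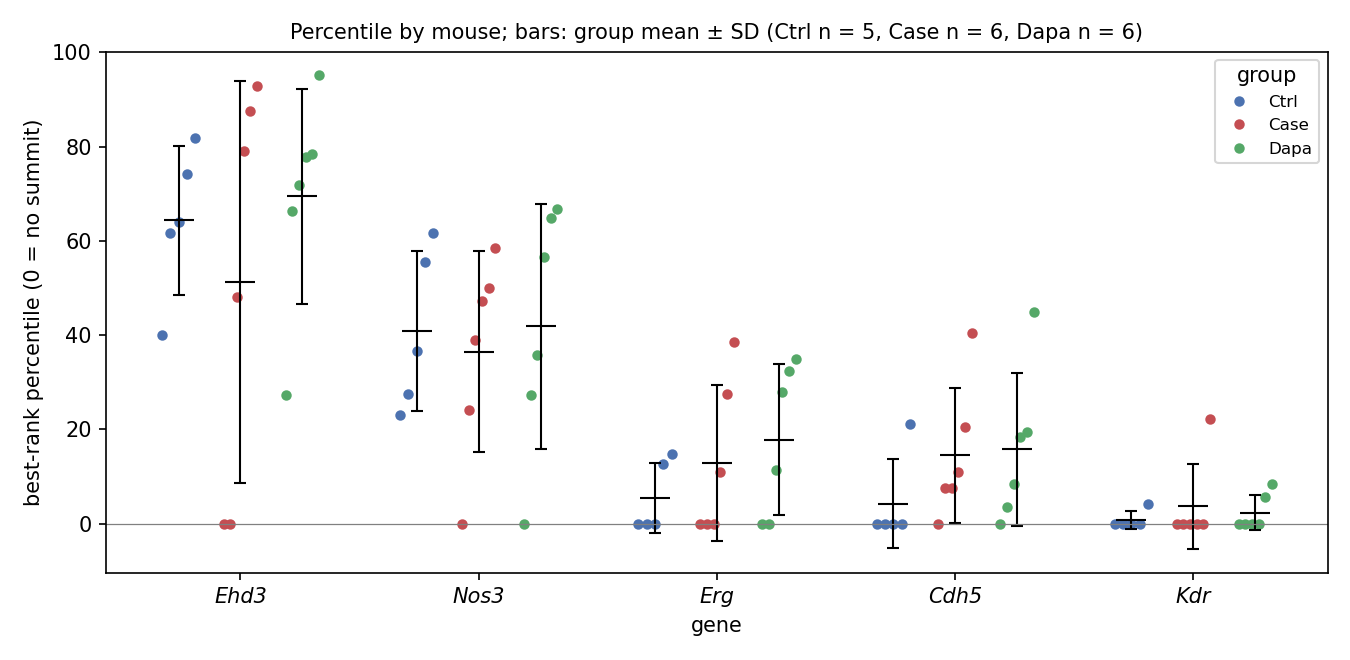
Best-rank percentile (y axis, 0 for no summit) of Ehd3, Nos3, Erg, Cdh5 and Kdr in each mouse (points), with the group mean and SD as black bars. The SD bars of the 3 groups overlap for every gene, and the lowest Case points of Ehd3 are the 0 values of Case 3 and Case 4.

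Kdr, the main signalling receptor for VEGF-A, had weak summits around its start. In the equal-length lists one lay within 1 kb of the start in Ctrl 5 (percentile 4.24) and Case 1 (22.1), and in the complete lists in 5 libraries (2 Ctrl, 1 Case and 2 Dapa). These sat between 60 bases before and 700 bases after the start. In 2 further Dapa mice there was an intronic summit, at 5.65 in Dapa 10 and 8.32 in Dapa 11. With only the top 14851 summits of each list, Kdr had none in any mouse. The 201 bases before its start, chr5:75978459-75978659 on the minus strand, are shown because they are rich in CG. A summit fell among them only in Case 1, 60 bases before the start and in the complete list alone. Capitals mark GGGCGGG or its complement, letters found in 14.2% of the regions.
Kdr promoter: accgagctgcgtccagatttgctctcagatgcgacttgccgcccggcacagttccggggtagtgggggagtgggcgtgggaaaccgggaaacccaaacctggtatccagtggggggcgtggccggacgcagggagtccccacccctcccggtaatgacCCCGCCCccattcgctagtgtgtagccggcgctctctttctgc

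The other 4 genes were close to empty. Tek, the angiopoietin receptor, had an intronic summit in Ctrl 4 (14.7) and Case 2 (59.5). Emcn had 1 summit in all of the 17 complete lists together, in an intron in Case 3 (44.2). Pecam1 had one in Case 3 (20.8, upstream) and in Dapa 8 and Dapa 10 (11.4 and 52.6, intronic), and the complete lists added 3 Ctrl mice. Plvap had one in Ctrl 3 (6.79), Case 3 (5.38) and Dapa 8 (11.4), and that of Dapa 8 lay 321 bases before the start. An exonic Plvap site about 4 kb into the gene was shared by 2 equal-length and 4 complete lists (3 Ctrl and 1 Dapa). The windows of Plvap and Pecam1 also overlap other genes (Ccdc194, Gtpbp3 and Milr1). Most of the 10 genes were marked in Case 3, Dapa 8 and Dapa 10 (7 each) and fewest in Case 4 (2), and Case 3 and Case 4 were the mice with 0 promoter summits.

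The CG content of the 5′ ends varied among the 10 genes. From 250 bases before to 50 bases after the 5′ end, the observed over expected CG ratio was 0.941 in Erg, 0.78 in Flt1 and 0.66 in Kdr, above the median of 0.525 over 21938 protein-coding genes. In the other 7 it lay between 0.0821 (Emcn) and 0.371 (Nos3). Of all genes with a ratio of 0.6 or more, 67.5% had a summit within 1 kb of a start in 15 or more libraries, and Erg, Flt1 and Kdr had one in 0, 1 and 2. Of genes with a ratio under 0.2, 8.17% did. Ehd3 had a ratio of 0.296 at its outermost 5′ end.

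The number of the 10 genes with a summit overlapped between the groups. It was 4.2 ± 1.30 (SD, n = 5) in Ctrl, 4.67 ± 1.75 (n = 6) in Case and 5.17 ± 1.47 (n = 6) in Dapa in the equal-length lists. In the complete lists it was 6.8 ± 1.30, 5.17 ± 1.72 and 6.5 ± 1.22, so the order of Ctrl and Case turned. The complete lists averaged 45444 summits in Ctrl, 37299 in Case and 40574 in Dapa, and the part of this difference in the counts was not tested. For Case against Ctrl, 0 of the 5 genes that could be tested passed an unadjusted p of 0.05 (exact permutation), beside 13.8% of 15198 protein-coding genes. For Dapa against Case it was 0 of 7 beside 4.03% of 15506, and for Dapa against Ctrl 0 of 6 beside 14.4% of 15099. The comparisons share their groups and are not independent. None of the 10 had groups that did not overlap, beside 2.43%, 0.193% and 2.42% of all genes tested. The median difference of the tested endothelial genes was 0.289 (the value of Flt1), 4.95 and 3.29 in these 3 comparisons, and that of all genes -1.28, 0.159 and -0.973. With the complete lists the sign of the first turned. The medians were -5.49, 9.59 and 0.909, beside -4.33, 1.59 and -2.32 for all genes. Of the 8 endothelial genes then tested, 7 were lower in Case than in Ctrl, as were 74.1% of all genes tested. Among the 8, Pecam1 and Plvap had a summit in 3 Ctrl mice and 1 Case mouse each. Both thus met the minimum of 3 mice mainly through Ctrl. Nothing is read from the 7 of 8 or from the medians against Ctrl. After adjustment over all genes (Benjamini-Hochberg), no gene of the annotation passed in any comparison, the smallest adjusted p being 0.178, 1 and 0.179. The smallest p of the design was 0.00433 against Ctrl and 0.00216 for Dapa against Case. With 1 mouse left out, an unadjusted exact p under 0.05 was reached in 7 refits of the 10 genes, 5 of them for Flt1 (at its repeat site). The other 2 were for Cdh5 without Ctrl 5, where the remaining Ctrl mice were all at 0. The share of all genes in the same refits is not given here, so nothing is read from any of the 7.

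Presence was also compared by region. Each summit was extended by 250 bases to either side, overlapping stretches were joined, and regions of at least 2 libraries were kept, of which 12 lay in the windows of 7 of the genes (all but Emcn, Pecam1 and Tek). The other 10 of them were in too few or too many mice for a p under 0.05 to be possible in Case against Ctrl, and 0 of the 2 testable ones, both at Nos3, passed (Fisher's exact test), beside 10.2% of 11420 testable regions. In each of the other comparisons 1 Nos3 site was testable and 0 passed, beside 1.17% of 7176 regions for Dapa against Case and 8.04% of 10873 for Dapa against Ctrl.

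No other endothelial gene passed the test after adjustment, and few had an unadjusted p under 0.05. Of 36, 20 could be tested for Case against Ctrl, and 0 were higher and 2 lower at that unadjusted threshold, only the first of which is read. The first was Ets1, an ETS factor of endothelium and lymphocytes (81.5 ± 16.8 in Case, n = 6, against 93.8 ± 3.79 in Ctrl, n = 5, exact permutation p = 0.0346). The second was Gja4, a connexin of arterial endothelium, with a summit in 4 of 5 Ctrl mice (28.3 ± 22.8) and 0 of 6 Case mice. It met the minimum of 3 mice with a summit through Ctrl alone, so its p is not given and it is not read as a call. For Dapa against Case 2 of 22 were higher, Vwf, the von Willebrand factor (49.7 ± 23.6 against 17.6 ± 13.7, n = 6 each, exact permutation p = 0.0173), and Nrp1, a VEGF co-receptor (85.9 ± 6.497 against 75.5 ± 9.68, exact permutation p = 0.0476). For Dapa against Ctrl 2 of 22 were lower, Ets1 (76.2 ± 10.0, n = 6, exact permutation p = 0.00866) and Klf4, a shear-responsive factor (73.4 ± 11.6 against 87.1 ± 4.86, exact permutation p = 0.026). Their adjusted p lay between 0.2 and 1 (Benjamini-Hochberg over all genes), and these shares of 10%, 9.09% and 9.09% stand beside the 13.8%, 4.03% and 14.4% of all genes. The 10% counts Gja4, so nothing is read from that share.

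Among 16 ligands and signal partners of these receptors, 2 of 14 tested had an unadjusted p under 0.05 for Case against Ctrl, 0 of 15 for Dapa against Case and 1 of 16 for Dapa against Ctrl. These shares of 14.3%, 0% and 6.25% stand beside the 13.8%, 4.03% and 14.4% of all genes. Hsp90aa1, a chaperone of endothelial nitric oxide synthase, was at 78.4 ± 11.7 in Case (n = 6) and 61.6 ± 6.65 in Ctrl (n = 5, exact permutation p = 0.0173, adjusted p = 0.256). Nrp2, a VEGF co-receptor, was at 6.14 ± 8.33 in Case and 29.3 ± 20.8 in Ctrl (exact permutation p = 0.0346). Grb14, an adaptor that binds receptor tyrosine kinases, was at 18.2 ± 16.0 in Dapa and 53.7 ± 6.15 in Ctrl (exact permutation p = 0.00433, adjusted p = 0.179), with no overlap between the groups, as for 2.42% of all genes tested. Among the marker lists of other cells, 0 genes passed for Case against Ctrl or for Dapa against Case. For Dapa against Ctrl 1 of 10 proximal tubule markers (Hnf4a) and 3 of 7 mesangial and pericyte markers (Ren1 and Pdgfrb higher, Itga8 lower) had an unadjusted exact permutation p under 0.05, their adjusted p lying between 0.249 and 0.273. These are 10% and 42.9% of the tested genes of 2 short lists, beside 14.4% of all genes. Pdgfrb had a summit in 5 Dapa mice and 1 Ctrl mouse, and Itga8 in 2 Dapa and 5 Ctrl mice. Both thus met the minimum of 3 mice mainly through the group where they were higher, and nothing is read from the 42.9%.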

How the data were processed

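ATAC-seq libraries of 17 kidneys were used. According to the methods of the study, the authors aligned reads to mm10 with Bowtie2 in the ENCODE pipeline, removed PCR duplicates and blacklisted regions, shifted reads by +4 and -5 bases, and used MACS2 for peak calling. What was deposited is 1 summit list per library, whose score is a −log10 p-value or q-value as the authors' caller wrote it (which of these is not given in the sources used here), with a lowest value near 2.00 in each list. Read depth is unknown, so no counting interval is given, and a missing summit means only that none was called.

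Gene models were GENCODE vM21. Values, regions and tests were as described with the results, computed with Python 3, NumPy and SciPy. A gene was tested when at least 3 of the compared mice had a value above 0. Tests were checked on simulated data. The 10 genes, the gene lists and the rule for naming list genes (up to 5 per list with the smallest unadjusted p under 0.05) were chosen with earlier results of these data known. Alternatives were complete lists, the highest-scoring 14851 summits, summits within 1 kb of a start only, presence by Fisher's test, summit extensions of 100 and 500 bases, a replicate block and each mouse left out. The sequence at the intronic site of Flt1 is not reported here.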

Additional observations from a re-analysis of the deposited data

Results flagged for a closer look

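A value was picked out here when its gap to the nearest mouse of its group took up most of the range of the group (Dixon's test, 95%). Of 38 groups of values examined, 13 values met this. The chance rate of 1 in 20 does not apply to 12 of the 13, where all other mice of the group were tied and any different value meets the rule. In 10 of these the value was the only one above 0 in its group. These were Kdr in Ctrl 5 (4.24) and Case 1 (22.1), Emcn in Case 3 (44.2), Pecam1 in Case 3 (20.8), Cdh5 in Ctrl 5 (21.1), Tek in Ctrl 4 (14.7) and Case 2 (59.5), and Plvap in Ctrl 3 (6.79), Case 3 (5.38) and Dapa 8 (11.4). In the other 2, Ctrl 5 and Dapa 8, 2 of the 10 genes had a promoter summit, and every other mouse of both groups had 1. The remaining value was Pecam1 in Dapa 10 at 52.6, beside 11.4 in the next mouse and 0 in the other 4.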

How the results depend on the processing

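With the complete lists, the Case against Ctrl difference turned to -3.06 for Cdh5, -3.28 for Erg, -4.91 for Kdr and -6.08 for Pecam1 and went to -18.9 for Plvap and -16.1 for Nos3, Dapa against Case to 4.45 for Kdr, and Dapa against Ctrl to -0.453 for Kdr, -6.56 for Nos3 and -12.5 for Plvap. Dapa minus Ctrl became -13.3 percentage points at the site of Nos3 labelled last-exon and -13.3 at the upstream site of Cdh5. At that Cdh5 site, Case minus Ctrl went from -3.33 to -46.7 points and Dapa minus Case from 16.7 to 33.3. The Cdh5 means were 15.8 in Dapa and 4.22 in Ctrl in the equal-length lists, and 33.7 and 32.0 in the complete lists. Dapa against Case rose from 4.95 to 16.9 for Erg (exact permutation p = 0.121). It also rose from 1.28 to 4.78 for Cdh5, from 7.18 to 13.6 for Pecam1, from 5.37 to 9.59 for Nos3 and from 0.995 to 6.47 for Plvap. Genes with a summit differed by -1.63 between Case and Ctrl, and summits in the windows by -2.57 (Case minus Ctrl) and 2.83 (Dapa minus Case). With the top 14851 summits, Ehd3 turned to 3.82 (Case against Ctrl). Then 528, 49 and 444 regions had an unadjusted p under 0.05 (Case against Ctrl, Dapa against Case, Dapa against Ctrl), beside 1165, 84 and 874 in the main fit. By presence, 168, 16 and 117 genes had such a p, beside 2098, 625 and 2172 by percentile. The numbers tested in these 2 alternatives are not given here, so the counts are not compared. By presence, Kdr turned to a share difference of 0.167 (Dapa against Case) and Nos3 to -0.167 (Dapa against Ctrl). Near starts alone, Kdr turned to -0.847 (Dapa against Ctrl). Without its repeat site, chosen after seeing the data, Flt1 turned to 1.25 (Dapa against Case). In the complete lists Pecam1 and Plvap had a summit in 3 Ctrl mice and 1 Case mouse each, and Plvap in 1 Dapa mouse. They met the minimum of 3 mice mainly through Ctrl, so nothing is read from these differences from Ctrl. The cause of these shifts was not tested.

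With 1 mouse left out, the number of the 10 genes with an unadjusted p under 0.05 ran from 0 to 2 (Case against Ctrl), 0 to 1 (Dapa against Case) and 0 to 1 (Dapa against Ctrl). This counts Cdh5 without Ctrl 5 (the other Ctrl mice at 0). Their regions ran from 0 to 1 (Case against Ctrl). With all mice kept, 13.8%, 4.03% and 14.4% of all genes tested had such a p. The share of all genes in the refits is not given here, so nothing is read from these counts. Over all regions, those with an unadjusted p under 0.05 (Fisher's exact test) ran from 1396 to 2128, 136 to 265 and 1088 to 1701 in the same order of comparisons. All 3 ranges lay above the 1165, 84 and 874 of the main fit. The number of testable regions in the refits is not given here, so the ranges are not read against these counts. Nos3 ran from -8.86 to 2.90 (Case against Ctrl), -1.92 to 13.7 (Dapa against Case) and -4.00 to 9.35 (Dapa against Ctrl). For Dapa against Case, Kdr ran from -2.56 to 2.33, Pecam1 from -1.20 to 10.7, Cdh5 from -4.56 to 6.46 and Erg from 1.504 to 10.1. For Case against Ctrl, Cdh5 ran from 5.10 to 14.5 and Erg from 2.23 to 9.92, and for Dapa against Ctrl from 5.72 to 15.8 and 8.86 to 15.9. Ehd3 ran from -21.4 to -2.82 (Case against Ctrl), 7.92 to 26.6 (Dapa against Case) and -0.977 to 13.5 (Dapa against Ctrl). The site of Nos3 labelled last-exon ran from -8.33 to 20 points (Case minus Ctrl, and Dapa minus Ctrl). The upstream site of Cdh5 ran from -20 to 16.7 points (Case minus Ctrl).

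Ctrl and Case share numbers 1 to 5, but nothing says that a number pairs mice, and same-numbered mice deviated from their group means with correlations of -0.0448 to 0.0587. With the replicate block (5 pairs, Case 6 left out, smallest possible exact p 0.0625), the differences were -20.3 for Ehd3, 11.7 for Cdh5, 9.92 for Erg, -6.55 for Nos3 and 0.295 for Flt1, and none changed direction or call. Ranks within equal-length lists cannot show a change that moves all sites together, and the depth behind each list is unknown.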
